A study of Mus musculus with 5 samples.

Results

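The 7 genes examined here, Dst, Macf1, Plec, Sptan1, Sptbn1, Ank2 and Ank3, code for plakins, spectrins and ankyrins, the large proteins that link actin, intermediate filaments, microtubules and membrane proteins to each other. They were taken by their symbol from the deposited table of neural stem/progenitor cells (NSPCs), which gave 55 listed transcripts of 7 genes among 22227 transcripts of 12588 gene symbols or identifiers. The paper names Dst and Plec, in text and tables, among cytoskeletal genes that differ in NSPCs without the p75 neurotrophin receptor. Its tables list transcripts of Plec in both directions. The other 5 genes are not named there. RNA was sequenced from mouse NSPC cultures of the strain C57BL/6J, with 2 libraries labelled WT (genotype p75NTR+/+, litter mates of the mutants, replicates 1 and 4) and 3 libraries labelled p75NTR-/- (replicates 1, 2 and 4), where p75NTR is the neurotrophin receptor encoded by Ngfr. Every culture was kept under proliferation conditions with 20 ng/ml rhFGF-2 and 20 ng/ml rhEGF and without treatment. The labels give embryos of E12.5 as the source, whereas the paper describes adult cells. The mutation is a constitutive one of the whole mouse. The paper describes 4 replicates from separately prepared NSPCs, whereas the labels tie no library to an animal or preparation. All p-values measure the spread between these 5 libraries.

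Plakins are crosslinkers with an actin-binding module at one end, a rod of spectrin repeats or a coiled coil in the middle, and a microtubule-binding or intermediate filament-binding module at the other end. Dst (dystonin, also BPAG1) and Macf1 (microtubule-actin crosslinking factor, also ACF7) are the spectraplakins, and Plec (plectin) is the broad binder of intermediate filaments such as vimentin and nestin. Spectrins are tetramers of α and β chains under the plasma membrane, here Sptan1 (αII-spectrin) and Sptbn1 (βII-spectrin), and ankyrins, here Ank2 (ankyrin-B) and Ank3 (ankyrin-G), attach ion channels and cell adhesion molecules to that spectrin lattice. All 7 genes are long and are known for alternative starts and cassette exons that decide which binding modules a protein carries.

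The recovered total was between 11688211 and 14452396 counts per library, and a count of 0 allowed up to 2.94 to 3.6 normalized counts. Intervals and limits of this kind cover counting error only. Ngfr, the targeted gene, had 1 and 2 counts in the WT-labelled libraries and 10, 117 and 238 counts in those labelled p75NTR-/-. The log2 difference of p75NTR-/- from WT was 4.89 (limma adjusted p = 0.93). Whether the mutant allele still gives Ngfr RNA was not tested, so these counts do not settle the genotype of a library. The groups are therefore called by their labels throughout, with no direction read as an effect of the genotype. In a principal component analysis of the gene sums, the first component (51.7% of the variance) set both replicates 4 apart from the other 3 libraries and the second (36.5%) set replicate 1 labelled WT apart. Values within replicate number 1 and within number 4 are given for this reason beside the values of the labels. The progenitor markers fixed for this culture were all listed (8 of 8), led by Fabp7 with 6270 to 6927 TPM. Prom1 among them had only 0.30 to 1.33 TPM, and Hes5 varied from 5.88 to 128 TPM. Of the other lists, 0 of 5 microglial, 0 of 6 epithelial and 0 of 6 muscle markers were listed, but 1 of 5 endothelial (Kdr) and 2 of 7 fibroblast or mural markers were. Acta2 of the latter had 52.0 and 59.3 normalized counts in the WT-labelled libraries against 249, 168 and 63.4 in those labelled p75NTR-/-.

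Dst and Macf1 are paralogs whose exons still match one by one, which is shown here because the same exons turned out to vary between the libraries in both genes. The listed transcripts Dst-201 and Macf1-203 (GENCODE names) both have 98 exons, and 81 exons of the one had the same length as an exon of the other in the same order. The bases of these matched exons were identical at a median of 64.1% of positions (range 33.4% to 88.9%). Each gene also has a giant exon, 5292 bases in Dst and 5331 bases in Macf1, and 4 exons of 150, 216, 150 and 234 bases that follow it. The 234-base exons are printed below from the GENCODE transcripts of GRCm38, 5′ to 3′ on the coding strand, with the 118 bases (50.4%) that are identical in both in capitals. They lie on the plus strand at chr1:34195828-34196061 in Dst and on the minus strand at chr4:123463538-123463771 in Macf1, and both are coding.
Dst 234-base exon: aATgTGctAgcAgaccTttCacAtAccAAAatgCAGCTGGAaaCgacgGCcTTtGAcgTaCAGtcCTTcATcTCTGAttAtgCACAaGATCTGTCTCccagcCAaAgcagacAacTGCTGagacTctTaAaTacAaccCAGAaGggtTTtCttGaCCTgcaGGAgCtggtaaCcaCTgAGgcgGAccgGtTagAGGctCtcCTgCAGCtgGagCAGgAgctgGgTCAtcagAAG
Macf1 234-base exon: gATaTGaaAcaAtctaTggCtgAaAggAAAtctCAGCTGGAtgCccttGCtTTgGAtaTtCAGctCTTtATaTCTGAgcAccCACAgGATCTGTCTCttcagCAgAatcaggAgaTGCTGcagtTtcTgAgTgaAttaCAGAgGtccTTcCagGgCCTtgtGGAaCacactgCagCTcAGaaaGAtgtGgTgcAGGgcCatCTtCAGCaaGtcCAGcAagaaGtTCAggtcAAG

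**Figure D1:**
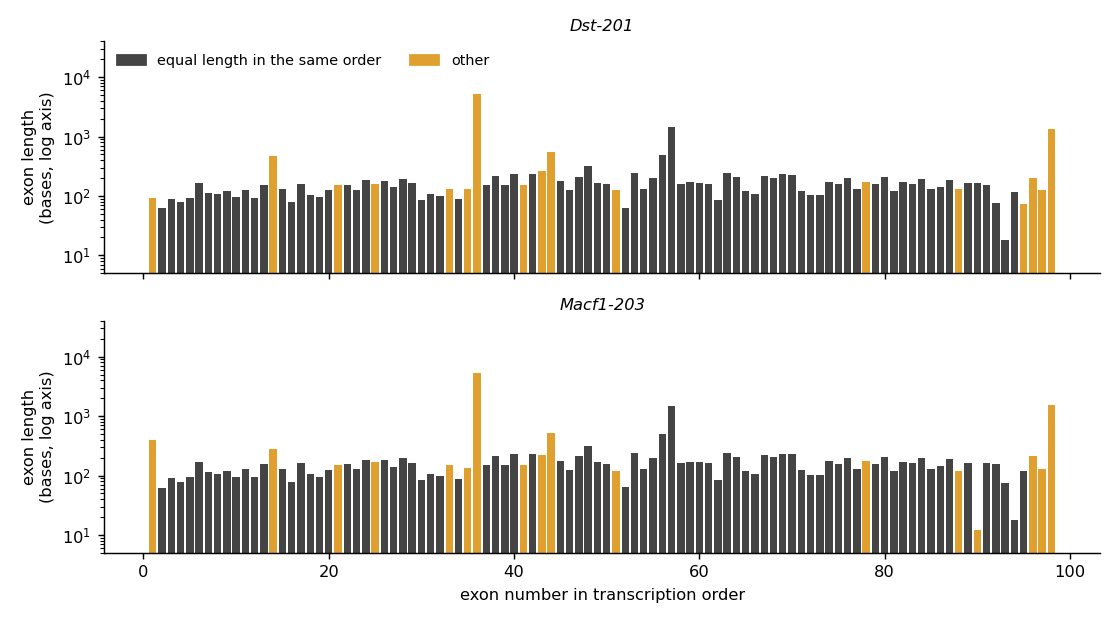
Length of each exon (bases, log axis) of Dst-201 and Macf1-203 against the exon number in transcription order. Dark bars are the 81 exons that have the same length in the same order in both transcripts, and the other exons, the giant exons of 5292 and 5331 bases among them, are in yellow.

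Levels between genes were compared per length, as TPM summed over the listed transcripts that are annotated as complete at both ends. Over the 5 libraries Ank2 was the highest with 150 TPM ± 33.8 (SD, n = 5), followed by Sptan1 with 98.1 ± 46.0, Sptbn1 with 34.5 ± 11.0, Ank3 with 8.0 ± 3.33, Macf1 with 3.40 ± 2.53, Dst with 3.38 ± 2.37 and Plec with 0.572 ± 0.287. The ranges of Ank2 (114 to 188 TPM) and Sptan1 (60.8 to 170) overlapped, but Ank2 was higher within each of the 5 libraries. The ranges of Ank3 (3.15 to 12.2), Macf1 (1.59 to 7.81) and Dst (1.80 to 7.54) overlapped too, and within libraries Ank3 was above Macf1 in 4 of 5 and Macf1 above Dst in 3 of 5, so that the order of these 3 genes was not the same in every library. Fragments annotated as incomplete hold 88.9% of the TPM of Macf1, 51.8% of that of Dst and 47.7% of that of Ank2, and with them Macf1 stood at 30.5 TPM, above Ank3 (8.50) and Dst (7.01). The level of Plec rests on 6 listed transcripts of 22 annotated ones, and its other transcripts were not analysed here.

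**Figure D2:**
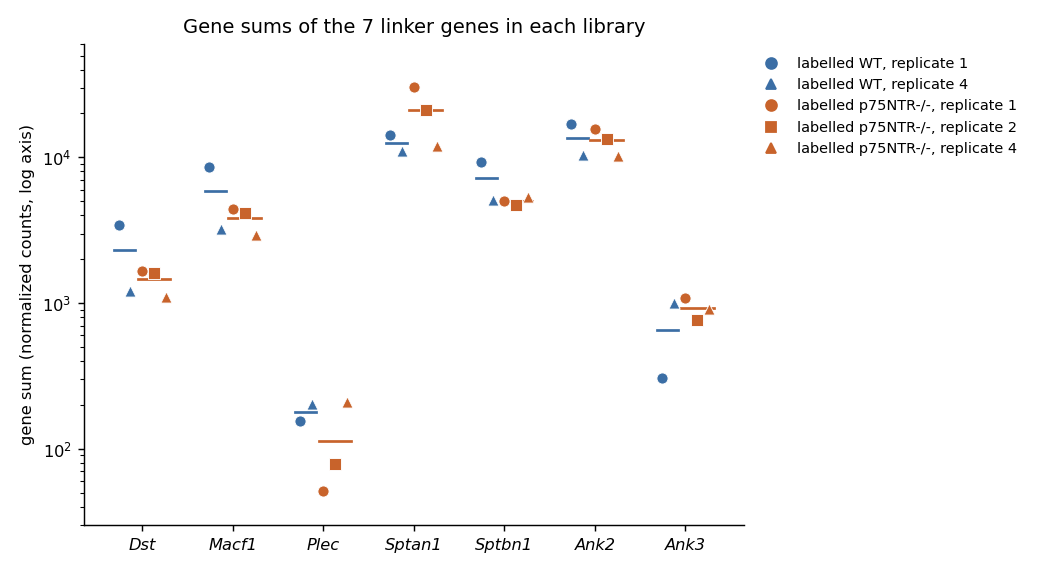
Gene sums (normalized counts, log axis) of the 7 genes, with 1 point per library, blue for the libraries labelled WT, orange for those labelled p75NTR-/-, and a bar at the mean of each label. Replicate 1 labelled WT is the highest library of Dst, Macf1, Sptbn1 and Ank2 and the lowest of Ank3, and the labels overlap in all 7 genes.

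No gene sum of the 7 genes passed the criteria between the labels (adjusted p under 0.05, 1.5-fold, mean of at least 50 normalized counts) with limma, edgeR or DESeq2 (0.00794%, 0% and 0.0556% of all gene sums), and none had an unadjusted limma p under 0.05, against 2.08% of all gene sums. Over the whole table limma called 1 of 12588 gene sums. The labels did not overlap in 0 of the 7 genes, against 14.7% of the 10786 gene sums with a mean of at least 50. The difference of p75NTR-/- from WT was below 0 in 5 of the 7 genes (47.4% over all gene sums), with a median of −0.46 on the log2 scale beside 0.02 over all. Replicate 1 labelled WT was the highest library in 4 of the 7 genes, against 28.4% of all gene sums.

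The Dst gene sum was 3438 and 1208 normalized counts in the WT-labelled libraries (replicates 1 and 4) and 1667, 1609 and 1103 in those labelled p75NTR-/- (replicates 1, 2 and 4). Macf1 had 8519 and 3214 against 4450, 4122 and 2908 in the same order. In both genes replicate 1 labelled WT stood far above the other 4 libraries and the 2 replicates 4 were the lowest, so that the labels overlapped. The log2 difference between the labels was −0.51 for Dst (SE 0.50) and −0.48 for Macf1 (SE 0.47), each with a limma adjusted p of 0.93. Within number 1 it was −1.04 for Dst and −0.94 for Macf1, and within number 4 it was −0.13 and −0.14. Without replicate 1 labelled WT the difference turned to 0.25 for Dst and 0.23 for Macf1.

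Dst, which the paper names, moved from library to library together with its paralog, which the paper does not name. The Dst sum was 40.4% and 37.6% of the Macf1 sum in the WT-labelled libraries and 37.5%, 39.0% and 37.9% in those labelled p75NTR-/-. On the log2 scale the ratio of Dst to Macf1 spread by an SD of 0.05 over the 5 libraries, whereas Dst itself spread by 0.64 and Macf1 by 0.61 and the median gene sum by 0.25. The ratio differed by −0.03 between the labels (exact permutation test, two-sided, p = 0.6, adjusted over 4 ratios p = 0.8, with 0.1 the smallest p that 2 against 3 libraries can give). Among 10785 other gene sums, Macf1 had the profile closest to that of Dst, with a root mean square difference of 0.04 on the centred log2 scale over the 5 libraries, where a flat profile would differ by 0.58. The next genes by this measure were Fat3 (0.05), an atypical cadherin, Tspan14 (0.07), a tetraspanin, and Nsg2 (0.09), a neuronal endosome protein. These profiles share their 5 libraries and are a description.

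**Figure D3:**
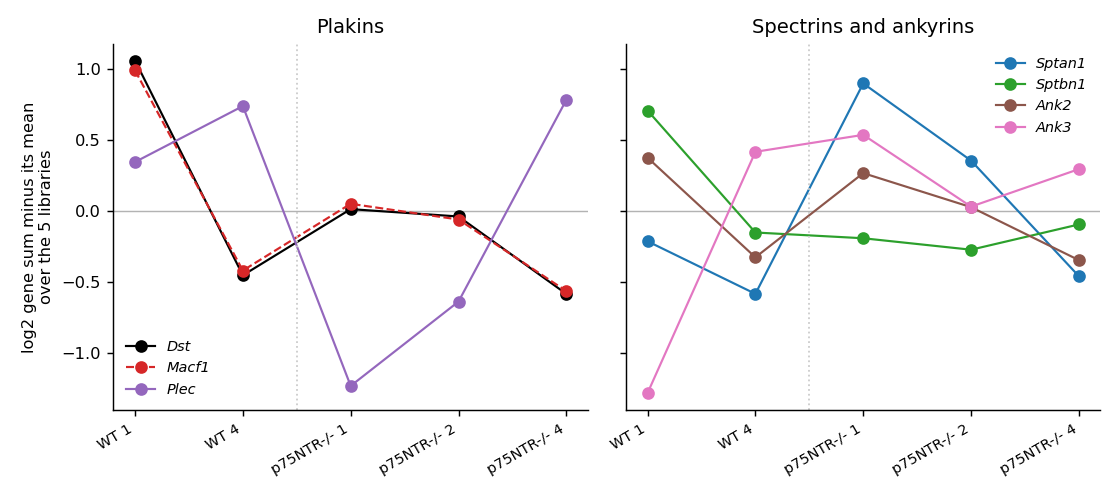
Log2 gene sum of each gene in each library minus the mean over the 5 libraries, with the plakins on the left and the spectrins and ankyrins on the right. The curves of Dst and Macf1 lie on each other, with replicate 1 labelled WT at the top and both replicates 4 at the bottom, and Plec follows another course.

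Set against the mean of the 5 genes that the paper does not name, Dst was lower by 0.58 on the log2 scale in the libraries labelled p75NTR-/- (exact permutation p = 0.2, adjusted p = 0.8, two-sided). The log2 value of replicate 1 labelled WT was −0.72 and those of the other 4 libraries lay between −2.01 and −1.72, and without replicate 1 labelled WT the difference was 0.01. The same comparison gave −0.98 for Plec (exact permutation p = 0.5, adjusted p = 0.8), and Plec against Macf1 gave −0.43 (exact permutation p = 0.8, adjusted p = 0.8). Without replicate 4 labelled WT or replicate 1 labelled p75NTR-/-, the difference of Plec from Macf1 turned to 0.47 or 0.13.

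None of the 55 listed transcripts passed the criteria with limma, which called 3 of 22227 transcripts in all (0.0135%), and 2 of the 55 had an unadjusted p under 0.05 (3.14% over all). edgeR called none of them (0% over all) and DESeq2 called 1, Dst-201 (0.126% over all). The labels did not overlap in 6 of the 55 transcripts, against 16.6% of all transcripts. Of the 55, 36 had more than 3 counts in every library, 3 passed that level in 1 library alone (1.13% over all transcripts) and 2 in none. The annotation gives 27 of the 55 transcripts no base of their own, so that for these Salmon's split of reads between transcripts rests on the combination of shared exons.

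Dst has 9 listed transcripts that begin at 6 places along a gene of 20 annotated transcripts (chr1:33908225-34308661, plus strand). Dst-211, which starts at the beginning of the gene and has 103 exons, took 37.5% and 30.6% of the gene sum in the WT-labelled libraries and 44.2%, 38.3% and 26.4% in those labelled p75NTR-/-. Dst-215, which starts 252 kb further down and lacks the actin-binding end, took 28.6% and 36.4% against 28.6%, 28.9% and 29.5%. Dst-204, a fragment of the 3′ end, took 12.4% and 25.9% against 22.8%, 23.2% and 30.8%. These 3 transcripts held 78.5% to 95.5% of the Dst sum together, and the range of their shares overlapped between the labels.

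Dst-201 (ENSMUST00000097785) is the first entry of a list that the study chose on data that include these samples. It had 498 normalized counts in replicate 1 labelled WT, whereas the other 4 libraries held 0. The authors' mean normalized count of Dst-201, over a wider set of samples, was 246, against 99.5 in the 5 libraries. Only 9 of its 23251 bases lie in no other annotated Dst transcript. limma gave it an adjusted p of 0.96 and DESeq2 an adjusted p of 4.0e-05, and edgeR's filter on low counts removed it. Dst-211, which shares the giant exon and nearly all other exons with it, was also the highest in replicate 1 labelled WT (1288 normalized counts) and the lowest in both replicates 4 (369 and 292). Macf1-203, the counterpart of Dst-201 in the paralog, had 524 and 51.0 normalized counts in the WT-labelled libraries and 114, 87.7 and 11.6 in those labelled p75NTR-/-, again the highest in replicate 1 labelled WT (log2 difference −1.71, SE 1.5, limma adjusted p = 0.96).

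Other Dst transcripts were minor. Dst-220 had 45.1 and 62.4 normalized counts in the WT-labelled libraries against 10.9, 10.8 and 25.4 in those labelled p75NTR-/-, with no overlap of the labels, but a mean under the minimum of 50 (log2 difference −1.81, SE 0.47, limma adjusted p = 0.96). Dst-213, which ends in the exons of the epithelial plakin form, stayed between 3.93 and 11.9 normalized counts. Dst-209, which the study also lists, had 24.5 normalized counts in replicate 1 labelled WT, the other libraries lying between 0 and 3.12. Dst-202 had 86.4 and 0 against 25.7, 92.5 and 105.

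Macf1 has 11 listed transcripts of 16 annotated ones (chr4:123349633-123684360, minus strand), of which 8 are annotated as incomplete. Macf1-204, whose first exon lies 208 kb from the start of the gene and holds the giant exon and 30 bases upstream of it, took 34.6% and 23.7% of the gene sum in the WT-labelled libraries and 26.3%, 27.0% and 23.5% in those labelled p75NTR-/-. Macf1-209 took 16.6% and 33.1% against 29.0%, 21.4% and 34.2%, and Macf1-215 took 25.1% and 17.2% against 18.2%, 24.5% and 15.3%. As in Dst, replicate 1 labelled WT had the most normalized counts in each of these 3 transcripts, between 1416 and 2949. Macf1-210, a short fragment with an exon of 9 bases, had a larger share in each library labelled p75NTR-/- (3.05% to 4.03%) than in those labelled WT (1.76% and 2.56%), with a limma adjusted p of the share of 1.0.

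The inclusion of a cassette exon was computed as the TPM of the listed transcripts that hold the exon, as a percentage of the TPM of all listed transcripts that span it. It rests on Salmon's split between transcripts and not on junction reads. The exons of 150, 216, 150 and 234 bases of Dst were included at 53.1% and 35.9% in the WT-labelled libraries and at 49.4%, 42.5% and 31.5% in those labelled p75NTR-/-. The matching 4 exons of Macf1 were included at 43.3% and 28.0% against 32.4%, 33.6% and 27.3%. Most of this Macf1 TPM came from Macf1-204, with 6.76 TPM against 0.96 of Macf1-203 in replicate 1 labelled WT. As Macf1-204 starts at the giant exon, the Macf1 value mixes the use of that start with the inclusion of the exons. Dst-211 and Dst-201 start far upstream, but the Dst value mixes start use with inclusion as well. Most of the TPM that skips the Dst exons came from Dst-215, with 2.6 TPM against 0.22 of Dst-202 in replicate 1 labelled WT. Dst-215 starts 252 kb further down than Dst-211. These starts lie at different places in the 2 genes, so the values of the 2 genes are not the same measure. In both paralogs the block was highest in replicate 1 labelled WT and lowest in both replicates 4, and the labels overlapped. In Dst, the value of replicate 1 labelled WT includes Dst-201, with 0.92 TPM there and 0 in the other 4 libraries. The place of this library above replicate 1 labelled p75NTR-/- rests on that transcript, of whose bases only 9 lie in no other annotated Dst transcript. The 4 exons of each gene lie in the same listed transcripts and so have 1 value.

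A further matched exon of 327 bases, identical at 61.2% of positions, did not vary in parallel. It was included at 82.1% and 100% against 97.5%, 91.1% and 85.8% in Dst, and at 69.3% and 48.2% against 53.2%, 63.8% and 46.5% in Macf1. Replicate 1 labelled WT was thus the lowest library for the Dst exon and the highest for the Macf1 exon. The only listed Dst transcripts that skip this exon are Dst-202 and Dst-201. Dst-201 had 0.92 TPM in replicate 1 labelled WT and 0 in every other library, and both transcripts were at 0 in replicate 4 labelled WT. The contrast with Macf1 in replicate 1 labelled WT therefore rests on the reads that Salmon gave to Dst-201. A 72-base exon near the 3′ end of Dst was included at 35.0% and 14.3% against 23.0%, 22.7% and 16.8%, again with both replicates 4 at the bottom.

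Over the 6 genes with a cassette exon, 70 alternative exons could be measured, and 64 of them (91.4%) have a length that is a multiple of 3, against 57.4% of 5555 alternative exons of all symbols. The 2 sets are unlike, since 67 of the 70 are coding against 4371 of the 5555, and 31 of the 70 are exons of Ank3. The labels did not overlap for 3 of the 70, against 16.3% of all. Both replicates 4 were lower than the other 3 libraries for 23 of the 70 (32.9%), against 19.9% of all, and replicate 1 labelled WT was the highest for 19 (27.1%), against 21.1%. Neighbouring exons of 1 transcript are not independent values, and these shares are a description.

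The neuronal markers did not all follow the Dst and Macf1 block. The 4 listed markers of 8 (Tubb3, Map2, Snap25 and Elavl3) summed to 929 and 690 TPM in the WT-labelled libraries and to 984, 969 and 648 in those labelled p75NTR-/-, lowest in both replicates 4, with Map2 as the bulk of the sum (617 to 966 TPM) and no listed marker at 0. Snap25 was likewise lowest in both replicates 4 (5.81 and 4.46 TPM, against 5.89 to 7.48), whereas Elavl3 was highest in them (21.4 and 18.5 TPM, against 5.71 to 8.97) and Tubb3 was lowest in replicate 1 labelled p75NTR-/- (7.06 TPM, against 7.58 to 10.6). The oligodendrocyte lineage markers (5 of 8 listed, led by Olig1) summed to 752 and 364 TPM against 632, 946 and 346, with the same libraries at the bottom. Astrocyte markers (7 of 7 listed) summed to 2185 and 1546 TPM against 1119, 1063 and 1654, and all 7 had a log2 difference below 0. Gfap among them had 9.96 and 28.2 TPM against 0.50, 0.05 and 30.5. The part of these cell types in the values of the linkers was not tested, and in bulk RNA fewer cells of a type and less RNA per cell cannot be told apart.

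**Figure D4:**
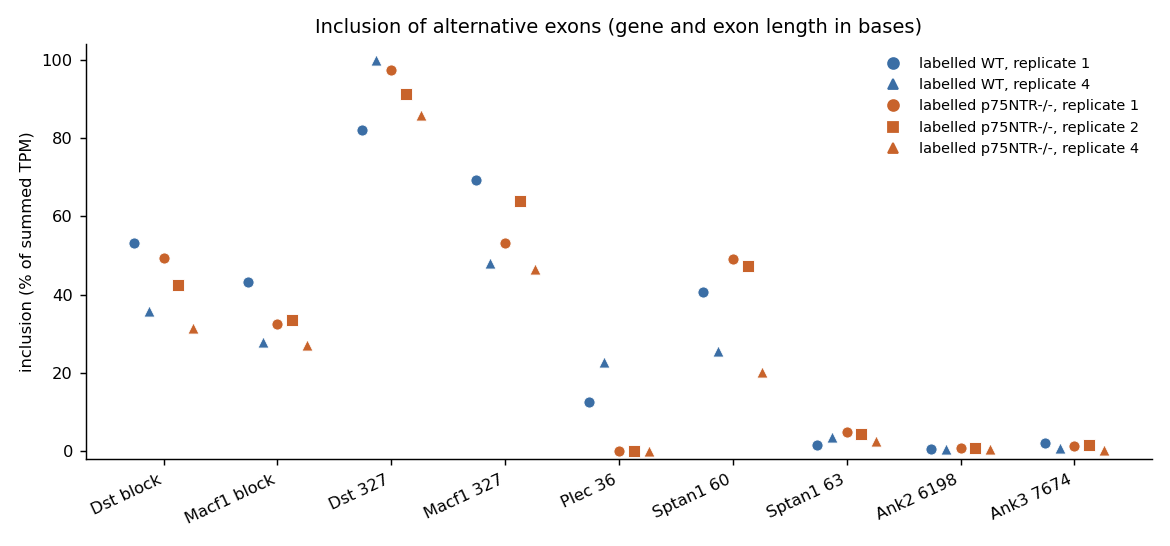
Inclusion (percent of the summed TPM of spanning transcripts) of alternative exons named by gene and length in bases, with 1 point per library and colours and symbols as for the gene sums. The blocks of Dst and Macf1 and the 60-base exon of Sptan1 have both replicates 4 (triangles) at the bottom, and the 36-base exon of Plec is above 0 in the WT-labelled libraries and at 0 in those labelled p75NTR-/-.

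Plec had few reads, with 158 and 196 counts over its 6 listed transcripts in the WT-labelled libraries and 52, 65 and 199 in those labelled p75NTR-/-. These correspond to 155 and 204 normalized counts against 51.5, 78.1 and 210, so that replicate 4 labelled p75NTR-/- was the highest of the 5 libraries and the labels overlapped. The 3 genes with the closest profile were Lonrf3 (0.08), Abhd18 (0.11) and Tprn (0.13), and none of the other 6 linkers was near it (0.76 or more, in root mean square difference).

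The listed Plec transcripts differ in their first exon, and in each library 1 to 3 of them took all the reads. Plec-206 took 85.4% of the sum in replicate 1 labelled WT and Plec-203 took 76.5% in replicate 4 labelled WT. In the libraries labelled p75NTR-/-, Plec-217 took 100% in replicate 1 and 61.5% in replicate 2, and Plec-203 took 59.8% in replicate 4. Plec-217 had 52 and 40 counts in replicates 1 and 2 labelled p75NTR-/- and 0 in the other 3 libraries, and the study lists it (log2 difference 3.78, SE 2.03, limma adjusted p = 0.96). Plec-206 had 135 counts in replicate 1 labelled WT, 80 in replicate 4 labelled p75NTR-/- and 0 in the other 3 libraries. With at most 199 counts a library over transcripts that share most of their sequence, no change of start was detectable at this depth beyond the spread of the replicates.

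Plec-209 (ENSMUST00000089610), which the study lists, was the transcript of the 7 genes with the lowest limma p (unadjusted p = 0.00018, adjusted p = 0.089). It had 20 and 46 counts in the WT-labelled libraries and 0 in the 3 libraries labelled p75NTR-/-. By counting error alone, at a limit of 3 counts per library, it was at least 10.4-fold higher in the WT-labelled libraries. The annotation gives Plec-209 no base of its own, so its counts also depend on Salmon's split between transcripts, which this bound does not cover. Its mean of 13.5 normalized counts lies under the minimum of 50, its share in the gene had a limma adjusted p of 0.44, edgeR gave an adjusted p of 1.0 and DESeq2 one of 0.0876. Plec-209 is the only listed transcript with 2 small coding exons in the actin-binding module, and they are printed below because its counts rest on them and on the combination of shared exons. The 36-base exon lies at chr15:76193966-76194001 and the 15-base exon at chr15:76194559-76194573 (GRCm38, minus strand). Each is given with the 20 bases of the neighbouring exons on either side in lower case and its own bases in capitals.
Plec 15-base exon: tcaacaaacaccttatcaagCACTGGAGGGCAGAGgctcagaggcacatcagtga
Plec 36-base exon: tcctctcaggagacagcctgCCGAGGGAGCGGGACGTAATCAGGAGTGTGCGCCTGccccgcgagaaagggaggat

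Both exons were included at 12.7% and 22.9% in the WT-labelled libraries and at 0% in those labelled p75NTR-/-, with no test beyond that of Plec-209 itself. A count of 0 of 52, 65 and 199 reads leaves room for up to 3 counts in each of these libraries by counting error alone.

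Sptan1, the α chain, and Sptbn1, the β chain, had different profiles over the libraries. The Sptan1 gene sum was 14175 and 10974 normalized counts in the WT-labelled libraries and 30576, 20997 and 11957 in those labelled p75NTR-/- (log2 difference 0.66, SE 0.43, limma adjusted p = 0.93). Sptbn1 had 9295 and 5132 against 4990, 4719 and 5337 (log2 difference −0.46, SE 0.29, limma adjusted p = 0.93). Replicates 1 and 2 labelled p75NTR-/- were thus the highest for Sptan1 and the lowest for Sptbn1. The Sptbn1 sum was 65.6% and 46.8% of the Sptan1 sum in the WT-labelled libraries and 16.3%, 22.5% and 44.6% in those labelled p75NTR-/-. The last value lies next to that of the other replicate 4, and this ratio was looked at after the values were seen and was not tested.

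Sptan1 has 7 listed transcripts (chr2:29965560-30031451, plus strand) that differ mainly by 3 coding cassette exons. Sptan1-204 and Sptan1-203 took between 87.6% and 94.9% of the sum together, Sptan1-204 without and Sptan1-203 with an exon of 60 bases in the middle of the chain. Sptan1-203 had 5496 and 2603 normalized counts in the WT-labelled libraries and 13310, 8741 and 2247 in those labelled p75NTR-/-, and Sptan1-204 had 7954 and 7567 against 13800, 9659 and 8987. The labels did not overlap for Sptan1-204 (log2 difference 0.45, SE 0.27, limma adjusted p = 0.96). The 60-base exon was included at 40.8% and 25.7% against 49.0%, 47.4% and 20.2%, which was lowest in both replicates 4. Within number 1 its inclusion was higher in the library labelled p75NTR-/- and within number 4 it was lower. The 15-base exon was included at 94.3% to 98.7% and the 63-base exon at 1.5% to 4.9% over all 5 libraries. The 3 exons are printed in capitals, between the 20 bases of the neighbouring exons on either side, since they are the positions at which the listed αII-spectrin messages differ (chr2:30001100-30001159, chr2:30014158-30014172 and chr2:30028644-30028706, GRCm38, plus strand).
Sptan1 60-base exon: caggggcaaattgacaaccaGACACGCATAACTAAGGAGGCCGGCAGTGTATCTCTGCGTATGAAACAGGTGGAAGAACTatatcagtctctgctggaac
Sptan1 15-base exon: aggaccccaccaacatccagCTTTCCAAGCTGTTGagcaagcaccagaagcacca
Sptan1 63-base exon: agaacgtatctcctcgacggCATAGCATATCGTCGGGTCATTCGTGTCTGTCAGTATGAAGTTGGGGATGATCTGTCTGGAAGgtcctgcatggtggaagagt

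Several minor Sptan1 transcripts had more counts in the libraries with the larger gene sum. Sptan1-202 had 80.5 and 81.1 normalized counts in the WT-labelled libraries and 726, 561 and 60.2 in those labelled p75NTR-/-, and Sptan1-208 had 94.2 and 122 against 744, 429 and 82.4. In both, replicates 1 and 2 labelled p75NTR-/- stood apart from the other 3 libraries, and replicate 4 with the same label was the lowest of all. For Sptbn1, Sptbn1-201 took 98.97% to 99.74% of the sum in each library. Sptbn1-203, which starts 69.9 kb further down and has another 3′ end, had 96.2 and 49.9 normalized counts against 13.9, 45.7 and 13.7, with no overlap of the labels but a mean under 50 (log2 difference −1.70, SE 0.68, limma adjusted p = 0.96).

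The Ank2 gene sum was the closest of the 7 between the labels, with 16936 and 10424 normalized counts in the WT-labelled libraries and 15709, 13309 and 10282 in those labelled p75NTR-/- (log2 difference −0.04, SE 0.31, limma adjusted p = 0.99). Both replicates 4 were the lowest, within a range of 1.65-fold that was the smallest of the 7 genes. Its composition was stable too, since Ank2-201 took between 69.2% and 70.3% of the sum in all 5 libraries. This transcript starts 501 kb from the start of the gene (chr3:126921612-127499350, minus strand) and codes for the C-terminal end without the ankyrin repeats. Ank2-220 took 9.3% to 15.8% and Ank2-218 5.9% to 10.9%, and both are annotated as incomplete.

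Ank3 went the other way from Dst and Macf1 in replicate 1 labelled WT. Its gene sum was 307 and 997 normalized counts in the WT-labelled libraries and 1082, 763 and 916 in those labelled p75NTR-/- (log2 difference 0.72, SE 0.53, limma adjusted p = 0.93). Replicate 1 labelled WT was lower than each of the other 4 libraries, and the difference was 1.81 within number 1, −0.12 within number 4 and −0.13 without that library. Ank3-247, which starts at the beginning of the gene (chr10:69398773-70027438, plus strand), took 41.8% to 51.2% of the sum, and the 5 listed transcripts that start 135 kb further down took 32.0% to 50.8% together. The main transcript of this second start, Ank3-210, had 118 and 286 normalized counts against 278, 252 and 319. Ank3-207, which starts 527 kb from the start of the gene and lacks the ankyrin repeats, had counts in only 3 libraries, with 93.6 normalized counts in replicate 4 labelled WT and 137 and 129 in replicates 1 and 4 labelled p75NTR-/-.

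Both ankyrin genes have a giant coding exon, 6198 bases in Ank2 and 7674 bases in Ank3, known for the long axonal forms of neurons. The Ank2 exon was included at 0.6% to 1.0% in the 5 libraries and the Ank3 exon at 0.4% to 2.0% of the TPM of listed transcripts that span it. In Ank2 nearly all of the skipping TPM came from Ank2-201 (95.5 to 159 TPM), which starts 501 kb from the start of the gene. Ank2-208 and Ank2-207, which start further upstream and span the exon, both hold it. The Ank2 value thus mixes the use of the late start with the inclusion of the exon. Of the 31 alternative exons of Ank3, 14 have 99 bases and 3 have 198 bases, the size of 1 and 2 ankyrin repeats. These repeat exons were included at 83.3% or more, and 1 short transcript, Ank3-220, which skips them, accounts for the rest.

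**Figure D5:**
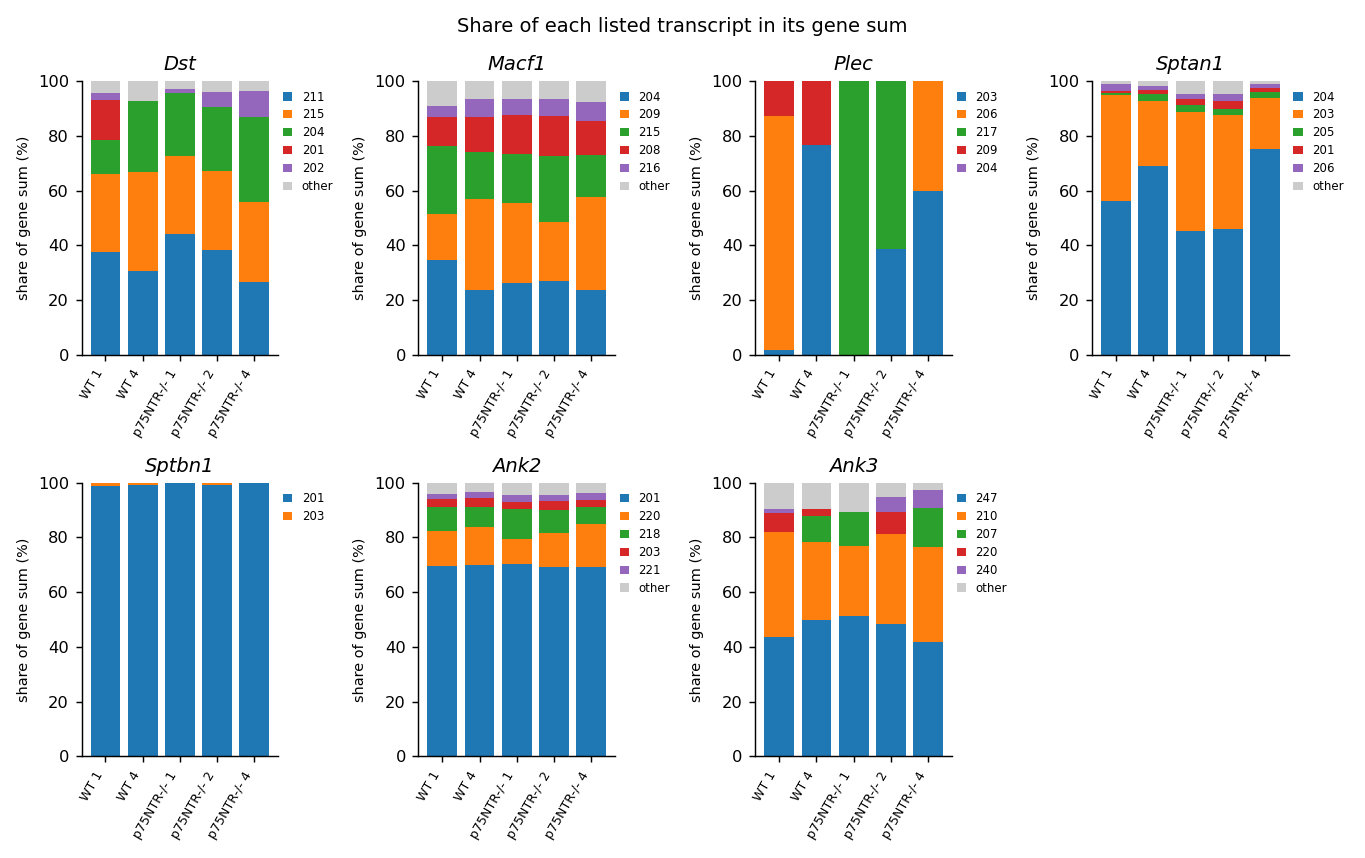
Share (percent of the gene sum of normalized counts) of the 5 listed transcripts with the highest mean of each gene, by GENCODE number, with all other listed transcripts in grey and 1 bar per library. The composition of Ank2 and Sptbn1 is nearly the same in all 5 libraries, Sptan1-203 is smaller in both replicates 4, and Plec has a different leading transcript from library to library.

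The shares of transcripts were also tested as log2 odds. None of the 55 shares passed the criteria with limma, which called 0 of 14596 shares in all (0%), and only that of Plec-209 had an unadjusted p under 0.05 (3.68% over all shares). No other tool was run on shares.

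The partners of these linkers were taken from 8 lists with 74 genes, of which 55 were listed in the table and 49 had a mean of at least 50. None of the 55 passed the criteria with limma (0.00794% of all gene sums) and 1 had an unadjusted limma p under 0.05 (2.08% of all gene sums). Of the 49, 20 had a log2 difference above 0 and 29 below 0, with a median of −0.08 beside 0.02 over all gene sums. Other plakins were nearly absent, with Ppl (periplakin) as the only 1 of 4 listed, at 0.12 TPM or less. Among the other spectrins, Sptb had 229 and 81.1 normalized counts in the WT-labelled libraries against 137, 148 and 66.6. Ank1, the erythroid ankyrin, had 105 and 0 against 84.1, 46.9 and 42.3.

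Of the spectrin-repeat relatives (7 of 9 listed, 1 higher and 5 lower of 6 with a mean of at least 50, median −0.20), the nuclear envelope linkers Syne1 and Syne2 had the largest differences. Syne1 had 1219 and 395 normalized counts in the WT-labelled libraries and 595, 518 and 312 in those labelled p75NTR-/-, with replicate 1 labelled WT at the top and replicate 4 labelled p75NTR-/- at the bottom as in Dst and Macf1, and Syne2 had 992 and 338 against 309, 562 and 437. The spectrin skeleton partners (13 of 15 listed, 5 higher and 7 lower, median −0.08) were led by Epb41l4a, a protein 4.1 relative, with 226 and 511 against 815, 863 and 585 (log2 difference 1.13, SE 0.41, limma adjusted p = 0.93), and by the adducin Add2 with 447 and 417 against 1004, 708 and 415.

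Among the membrane proteins that ankyrins bind (13 of 15 listed, 5 higher and 7 lower, median −0.21), neurofascin (Nfasc) had 419 and 757 normalized counts in the WT-labelled libraries against 318, 250 and 684. Of the intermediate filaments and integrins that plakins bind (9 of 16 listed, 6 higher and 2 lower, median 0.11), Gfap had 241 and 680 normalized counts in the WT-labelled libraries and 11.9, 1.2 and 746 in those labelled p75NTR-/-, and nestin (Nes) had 8704 and 13101 against 23123, 17844 and 13413. The epithelial keratins and Itgb4, the hemidesmosomal partners of plakins, were not among the listed genes. The microtubule-end partners (9 of 9 listed, 1 higher and 7 lower, median −0.13) were led by Clasp2 with 3941 and 1965 against 1943, 2251 and 2058, highest in replicate 1 labelled WT, and Mapre2 with 958 and 624 against 573, 681 and 668.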

How the data were processed

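The members and lists were chosen with earlier results of these data known. RNA of 5 NSPC cultures was sequenced (500 ng input, stranded mRNA libraries). The authors quantified transcripts with Salmon 0.10.2 on GRCm38.p6, and DESeq2 1.22.0 in R 3.6.1 gave their normalized values. The deposited signal is a count over the size factor of its library, with 0.5 added. Less this offset, 100% of all values were whole multiples of 1 step per library (tolerance 0.02 normalized counts), which gave the recovered counts, of 11688211 to 14452396 per library. The authors' TPM columns are a deposited score here, as the 303 repeat lines are counted in their sums, and the authors' baseMean is a deposited score that covers more samples than these 5. The table also holds the authors' log2 fold changes, p-values and adjusted p-values, which were not used. Repeat lines were dropped, which left 22227 of 22530 lines. All columns of per-sample values were used (0 left out).

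limma 3.58.1 (lmFit, eBayes, R 4.3.3) was run on log2(normalized count + 1) of all transcripts and of gene sums, and on the log2 odds of shares for symbols with at least 2 transcripts and a mean of at least 50, with Benjamini-Hochberg adjustment over each table. Fold changes on this scale understate those of low transcripts. A call needed an adjusted p under 0.05, a 1.5-fold change and a mean of at least 50. edgeR 4.0.16 and DESeq2 1.42.0 were run on the recovered counts as alternatives. The fits were run on simulated data with known changes, with independent libraries and the same dispersion for every transcript. The simulation held no split between replicates, so it does not show how the fits behave with the split seen in these libraries. Log2 ratios of gene sums were compared with an exact permutation test over 10 assignments. Exons, coordinates and sequences came from GENCODE vM21 (GRCm38), which matched 22199 transcripts (99.87%). Text names all member transcripts of interest, the 2 genes of each list with the largest change and the 3 closest profiles to Dst and Plec, less 2 genes that are not reported here. Python 3.11.15 with pandas 2.3.3 was used.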

Additional observations from a re-analysis of the deposited data

Results flagged for a closer look

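The transcripts Plec-204 (ENSMUST00000072692) and Plec-218 (ENSMUST00000169714) had no count in any of the 5 libraries, but the authors' mean normalized count over a wider set of samples was 27.1 and 34.2. These means come from a column that no comparison used, and they stand above the limit of 3 counts that a count of 0 allows. Over the 6 listed Plec transcripts the authors' mean summed to 975 normalized counts, against 140 in the 5 libraries, or 6.98 times as much. For the other 6 genes this ratio lay between 0.697 and 1.61.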

How the results depend on the processing

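With 2 against 3 libraries, and with 2 sets of libraries apart from the others, these data limit what a difference between the labels can show. Transcripts without bases of their own depend on Salmon's split, and p-values cover only these libraries. No gene sum or share of the 7 genes was called under any alternative, and DESeq2 alone called a transcript (1, Dst-201, log2 difference −24.3, adjusted p = 4.0e-05). Over the whole table, the 3 calls of transcripts became 0 with a pseudocount of 10, with limma's trend and robust prior, with the replicate block, with TPM (chosen after seeing the data) and with edgeR, 28 with DESeq2 and 31 without a minimum of the mean, and 0 without any single library. The 1 call of gene sums became 0 with the replicate block, with TPM and with edgeR, 7 with DESeq2, and 0 to 1 without a library. The 0 calls of shares became 44 with a pseudocount of 0.5 and 11 with transcripts of a mean of at least 10 only, and none of the members was among them. The cause was not tested. The replicate numbers share only a number, as the labels name no litter or day and there are 2 pairs (correlation of deviations 0.256 and 0.476). With the replicate block the 4 ratios were −0.05 (Dst to Macf1), −0.22 (Plec to Macf1), −0.67 and −0.85 (Dst and Plec to the mean of 5 genes), which kept the direction.

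Of 98 values of the 7 gene sums under alternatives, 93 kept their direction and 5 reversed, and of 447 values of 32 transcripts 32 reversed and 1 went to 0 (Dst-201 without replicate 1 labelled WT, where all libraries are at 0). Without 1 library the gene sums ranged from −1.26 to 0.25 (Dst), −1.18 to 0.23 (Macf1), −0.39 to 0.31 (Ank2) and −0.13 to 1.57 (Ank3), and the ratios from −0.081 to 0.021 (Dst to Macf1), −1.33 to 0.47 (Plec to Macf1) and −1.18 to 0.0055 (Dst to the mean of 5 genes). Most of these reversals came without replicate 1 labelled WT. Transcripts that reversed ranged from −1.34 to 0.46 (Dst-211), −0.45 to 6.00 (Dst-202), −0.23 to 0.22 (Dst-204), −0.55 to 0.23 (Macf1-216), −1.62 to 0.34 (Macf1-204), −1.58 to 0.37 (Macf1-215), −0.25 to 0.61 (Macf1-210), −0.77 to 0.29 (Macf1-208), −3.31 to 2.00 (Plec-203), −0.39 to 0.30 (Ank2-201), −0.065 to 0.61 (Ank2-208), −0.37 to 0.27 (Ank2-209), −0.48 to 0.46 (Ank2-218), −0.47 to 0.16 (Ank2-220), −1.30 to 0.80 (Ank2-227), −0.49 to 0.12 (Ank2-203), −0.092 to 0.37 (Ank2-221), −0.21 to 1.66 (Ank3-247), −0.022 to 1.25 (Ank3-210) and −1.86 to 4.71 (Ank3-207). With TPM, Dst-204 turned to 0.0018 and Ank2-218 to 0.0084, and Ank2-218 was 0.022 with edgeR and 0.018 with DESeq2.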
